A study of Mus musculus with 24 samples.

Results

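The genes described here are Msi1, Msi2, Ptbp1, Ptbp2, Srrm4, Nova2, Rbfox2 and Celf4, which encode RNA-binding proteins of the Musashi, PTB, SRRM, Nova, Rbfox and CELF families. They were taken by gene symbol and make up 8 of the 21887 protein-coding genes in the gene table used. Each was examined over the gene with 5 kb on either side, in 8 lists of peaks from wild-type mouse retina. The lists come from CUT&RUN, in which an antibody brings a nuclease to a chromatin-bound protein and the DNA cut free is sequenced. The tissue was retina at postnatal day 2 (P2) or postnatal day 17 (P17), with 600000 nuclei per reaction, and no strain or sex is given in the labels. Each age was sampled with 2 antibodies to SOX8, giving 4 libraries, and with 2 libraries apiece for SOX9, H3K4me3 and H3K27ac. The 4 IgG control libraries were not analysed here. The study asked where the related transcription factors SOX8 and SOX9 bind in wild-type retina at these ages, in connection with the differentiation of Müller glia, the main glial cells of the retina.

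All 8 proteins bind pre-mRNA or mRNA and change how it is spliced, translated or kept. Musashi proteins are best known from neural stem and progenitor cells, and in photoreceptors they promote the inclusion of exons specific to those cells. PTBP1 holds back neural exons in progenitors and in cells that are not neurons, and neurons replace it with its paralog PTBP2, a more permissive repressor. SRRM4 promotes the inclusion of very short neural exons, and NOVA2, RBFOX2 and CELF4 regulate the splicing or handling of neuronal transcripts. SOX8 and SOX9 belong to the SoxE group, and SOX9 is present in retinal progenitors and Müller glia. Of the histone marks, H3K4me3 is found at promoters in use, and H3K27ac at both promoters and enhancers that are active.

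Each target and age had 1 list, which names no replicate, so no replicate error could be computed and no test was made. Every difference below is between 2 lists, and the depth behind them is unknown. The SOX lists held 2653 (P2 SOX8), 5476 (P2 SOX9), 2400 (P17 SOX8) and 2855 (P17 SOX9) peaks. Although the SOX9 list held fewer peaks at P17, its median width was 2668 bp at P2 and 5336 bp at P17, and it covered 16.0 Mb and 16.3 Mb. H3K4me3 was listed in 9134 peaks at P2 and 9629 at P17. H3K27ac was listed in 287845 peaks over 525.4 Mb at P2 and 29909 peaks over 173.4 Mb at P17. The labelled tissue was checked through H3K4me3 near gene starts, which was present at 6 of 6 retinal genes at both ages and at 1 of 4 rod genes at P2 against 4 of 4 at P17. It was present at 2 of 3 Müller glia genes at P2 and 1 of 3 at P17, and at neither age at the marker genes of pigment epithelium, lens, microglia and endothelium (2 genes each) or at 4 genes of unrelated tissues. In such bulk samples, fewer cells carrying a peak and less signal per cell cannot be told apart.

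Every one of the 8 genes had a SOX9 peak at P2, and 5 of the 8 had one at P17. P2 SOX9 peaks lay in the window of 27.7% of protein-coding genes, and P17 SOX9 peaks in that of 15.7%. SOX8 peaks lay at 5 of the 8 genes at P2 and at 3 of the 8 at P17, against 15.1% and 13.0% of all genes. The marks were present at all 8 genes at both ages, with P2 H3K27ac at 6 of the 8 (not Ptbp2 or Nova2) when as many of the widest P2 peaks were kept as the P17 list held. Over all genes, H3K4me3 was present in 49.3% of windows at P2 and 50.9% at P17, and H3K27ac in 81.8% and 57.0%. Among genes with H3K4me3 at the same age, H3K27ac was present in 99.8% at P2 and 94.2% at P17.

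The genes fell into 3 patterns. Ptbp1, Srrm4 and Celf4 had peaks in all 8 lists, as did 6.32% of protein-coding genes. Msi1 and Msi2 had peaks in 7 lists and lacked P17 SOX8, a pattern held by 1.84% of genes. Ptbp2, Nova2 and Rbfox2 had the P2 SOX9 peak and both marks at both ages but no SOX8 peak and no P17 SOX9 peak, as did 7.72% of genes. So the 2 Musashi genes shared 1 pattern, while the 2 PTB genes differed.

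**Figure D1:**
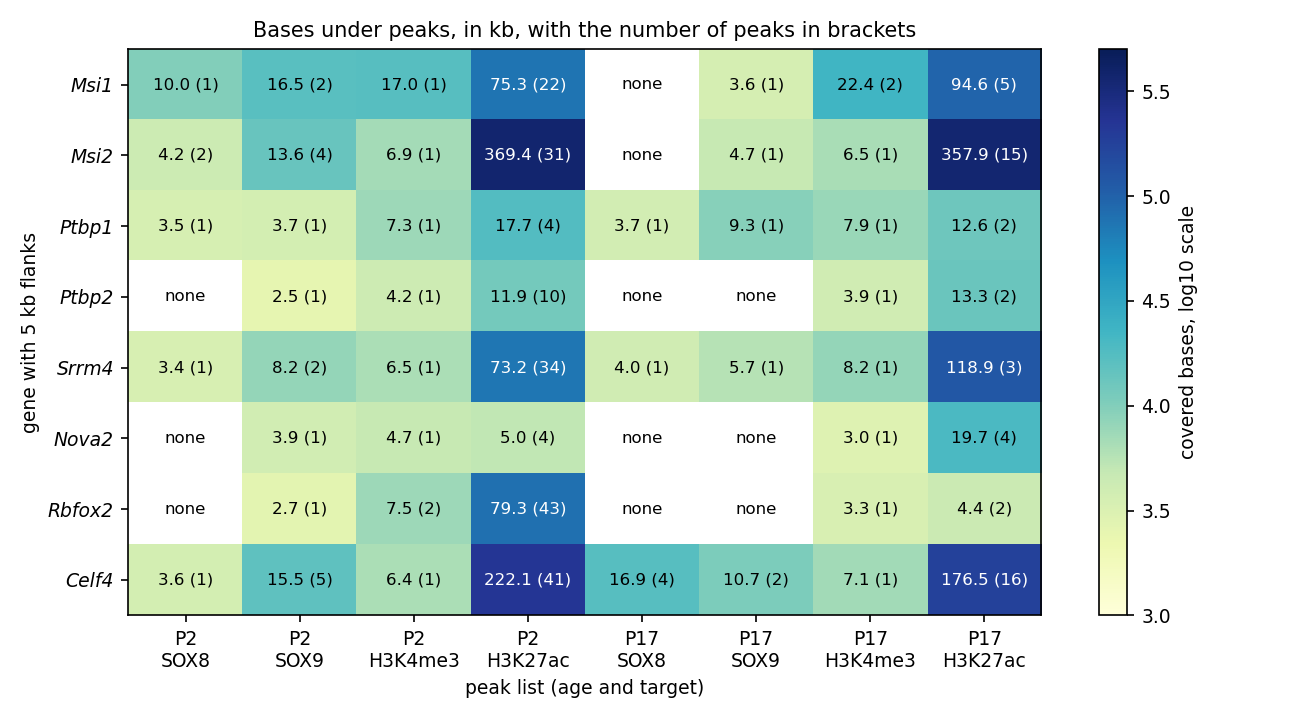
Bases under peaks (in kb, colour on a log10 scale of bases) and number of peaks in brackets for each gene with 5 kb flanks (rows) in each peak list (columns, by age and target). The P2 SOX9 and both mark columns are filled at all 8 genes, whereas the P17 SOX8 column is filled at 3 and the P17 SOX9 column at 5.

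A SOX8 peak at P2 with none at P17 was seen at Msi1 and Msi2, 2 of the 8 genes, against 7.00% of all genes. For SOX9 this held at Ptbp2, Nova2 and Rbfox2, 3 of the 8, against 16.4% of all genes. These 3 had no P2 SOX8 peak to lose. Since more genes had a P2 SOX9 peak to begin with, the loss is better read among those: 3 of 8 here, and 58.9% of all genes with a P2 SOX9 peak. For SOX8 the corresponding values were 2 of 5 and 46.4%. A SOX9 gain was not possible here, because all 8 genes had a P2 SOX9 peak. For SOX8 only Ptbp2, Nova2 and Rbfox2 lacked a P2 peak, and none of them had one at P17. Over all genes, a peak at P17 with none at P2 was seen at 4.94% for SOX8 and 4.35% for SOX9. None of the 8 genes lost H3K4me3 (3.40% of all genes did) or H3K27ac (25.1%). Among genes with the mark at P2, as all 8 had, the shares lost were 6.91% and 30.7%. All 8 genes also had P17 H3K4me3, and 94.2% of all genes with that peak had P17 H3K27ac.

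Gene length enters these counts, because a longer window meets more peaks. The median length was 125.0 kb for the 8 genes and 17.2 kb for all protein-coding genes, from Ptbp1 at 10004 bp to Msi2 at 378.9 kb. Among the 1482 genes of 100 kb or longer with P2 H3K4me3, 56.3% had SOX9 at that age and 30.0% SOX8. The 4 such genes here, Msi2, Srrm4, Rbfox2 and Celf4, all had P2 SOX9, and 3 of the 4 had P2 SOX8. At P17 the shares among long genes with H3K4me3 were 24.0% for SOX9 and 19.8% for SOX8, beside 3 and 2 of these 4 genes.

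Counted only within 1 kb of the gene start, P2 SOX9 peaks lay at 7 of the 8 genes, against 22.6% of all genes, and P2 SOX8 peaks at 3 of the 8, against 12.1%. At P17, 3 of the 8 had SOX9 at the start, against 10.8%, and 2 of the 8 had SOX8, against 8.90%. H3K4me3 lay at the start of 7 of the 8 genes at both ages, against 44.3% of all genes at P2 and 45.6% at P17. H3K27ac did so at 8 of 8 at P2 and 7 of 8 at P17, against 67.2% and 47.3%. Msi1 was the gene without SOX or H3K4me3 at a start, and Rbfox2 the one without P17 H3K27ac there. For Msi1, Rbfox2 and Celf4 either end of the RefSeq gene stood for the start, so a transcript that begins inside the gene would be missed.

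The bases before the annotated start are shown for both PTB genes, for Msi2 and for Srrm4, because P2 SOX9 covered all 4 starts and the genes then diverged at P17. Nova2 also had P2 SOX9 over its start and no P17 SOX peak, and is described below without its bases. The sequences are the 250 bases upstream of the outermost start of each gene in RefSeq GRCm38.p6, written 5′ to 3′ on the strand of the gene. They come from chr10:79854182-79854431 (plus strand), chr3:119783389-119783638 (minus strand), chr11:88718278-88718527 (minus strand) and chr5:116591818-116592067 (minus strand). Capitals mark a match to the SOX core words ACAAT or ACAAAG, which do not overlap each other here, on either strand.
Ptbp1: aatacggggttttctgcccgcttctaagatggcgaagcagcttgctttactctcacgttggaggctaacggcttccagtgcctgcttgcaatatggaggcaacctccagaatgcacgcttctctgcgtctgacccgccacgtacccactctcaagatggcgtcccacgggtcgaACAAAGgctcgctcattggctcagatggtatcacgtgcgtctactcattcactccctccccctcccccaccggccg
Ptbp2: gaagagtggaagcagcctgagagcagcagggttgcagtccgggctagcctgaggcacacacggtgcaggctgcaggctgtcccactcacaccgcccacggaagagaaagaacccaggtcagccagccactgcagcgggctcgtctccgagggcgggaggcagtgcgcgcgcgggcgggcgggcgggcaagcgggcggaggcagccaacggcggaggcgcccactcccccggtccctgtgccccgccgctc
Msi2: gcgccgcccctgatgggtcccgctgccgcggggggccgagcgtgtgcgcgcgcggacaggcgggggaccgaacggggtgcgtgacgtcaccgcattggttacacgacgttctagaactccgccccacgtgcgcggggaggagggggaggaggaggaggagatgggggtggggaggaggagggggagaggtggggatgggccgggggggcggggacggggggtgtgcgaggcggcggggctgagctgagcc
Srrm4: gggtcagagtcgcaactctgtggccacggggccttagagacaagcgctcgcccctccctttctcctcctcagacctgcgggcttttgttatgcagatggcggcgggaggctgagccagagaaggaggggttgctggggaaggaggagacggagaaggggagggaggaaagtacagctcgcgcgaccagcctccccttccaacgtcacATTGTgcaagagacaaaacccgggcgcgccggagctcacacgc
Ptbp1 held ACAAAG on its own strand, 76 to 71 bases before the start. Srrm4 held ACAAT on the opposite strand, read as ATTGT in the printed sequence, 43 to 39 bases before the start. Neither word occurred before the starts of Msi2, Ptbp2 or Nova2. Over 17492 promoters of this length, 36.1% held at least 1 of the words, 25.8% ACAAT and 14.9% ACAAAG. GC content was 75.6% for Msi2, 72.4% for Ptbp2, 63.2% for Srrm4 and 57.6% for Ptbp1, against a median of 55.2%. Msi2 held 29 CpG pairs, Ptbp2 23, and Ptbp1 and Srrm4 17 each, against a median of 10. Nova2, whose bases are not printed here, held 10 CpG pairs, equal to the median, at a GC content of 71.2%. A match describes the sequence and is not evidence of binding.

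Msi1 (chr5:115359059-115455698 in GRCm38) encodes Musashi-1 and carried the widest P2 SOX8 peak of the list. That peak covered 10029 bp at chr5:115429078-115439106, rank 1 of 2653. It lay wholly inside a P2 SOX9 peak of 14467 bp (chr5:115427979-115442445, rank 9 of 5476), which in turn lay wholly inside a P2 H3K4me3 peak of 16993 bp (chr5:115426326-115443318, rank 10 of 9134). These 3 nested peaks were 12.4 to 16.6 kb from the nearer gene end and touched the noncoding gene A930005G22Rik (chr5:115420594-115429504) at their left side. No annotated start of Msi1 was available here, so the distance to its promoter is unknown. Whether the nested peaks mark a promoter of Msi1 was not tested. Another P2 SOX9 peak, of 2003 bp, lay at chr5:115397286-115399288.

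At P17 the H3K4me3 peak over the same site remained, with 16620 bp (rank 17 of 9629), of which 16524 bp were shared with the P2 peak. No P17 SOX8 or SOX9 peak overlapped it. The single P17 SOX9 peak of Msi1 covered 3571 bp at chr5:115402939-115406509, separated by 21469 bp from the wide P2 SOX9 peak and by 3650 bp from the narrow one. It shared 3052 bp with an H3K4me3 peak of 5798 bp (chr5:115400193-115405990) that had no P2 counterpart. The SOX9 peaks of Msi1 thus lay at different positions at the 2 ages, the P17 one largely within H3K4me3 that was listed at P17 alone. The bases under SOX9 were 16.5 kb at P2 and 3.6 kb at P17. H3K27ac covered 75.3 kb of the window in 22 peaks at P2 and 94.6 kb in 5 peaks at P17, and every SOX peak of Msi1 lay under it at both ages.

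**Figure D2:**
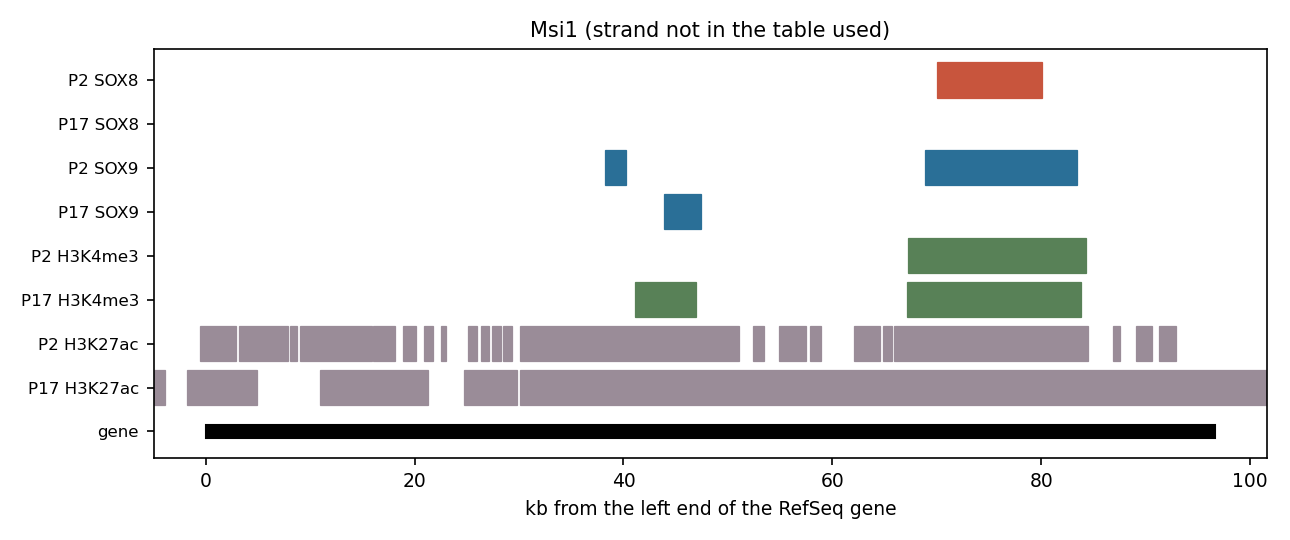
Peaks over Msi1 with 5 kb flanks by list (rows, 1 bar per peak), against distance in kb from the left end of the RefSeq gene, drawn as a black bar. The wide P2 SOX8 and SOX9 peaks lie within the H3K4me3 peak of 16993 bp. The P17 SOX9 peak of 3571 bp lies to the left of it and overlaps the H3K4me3 peak listed there at P17 alone.

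Msi2 (chr11:88339382-88718306, minus strand) encodes Musashi-2 and had its SOX peaks spread over the gene at P2. The 2 P2 SOX8 peaks were 1878 bp at the start and 2362 bp at a site 311.4 kb downstream (chr11:88404505-88406866). The 4 P2 SOX9 peaks were 2877 bp at the start and 4489, 3267 and 2917 bp at 131.5, 311.6 and 360.3 kb downstream. Both P2 SOX8 peaks overlapped a P2 SOX9 peak, and the peaks inside the gene overlapped H3K27ac but not H3K4me3. At P17 the one SOX peak was SOX9 at the start, with 4657 bp (chr11:88717016-88721672), and the 3 internal SOX9 sites were not listed. The start region also lay over the noncoding gene C030037D09Rik. H3K4me3 at the start covered 6886 bp at P2 and 6497 bp at P17.

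H3K27ac covered nearly the whole of Msi2, with 369.4 kb or 95.0% of its window at P2 and 357.9 kb or 92.0% at P17. By bases covered it ranked 25 of 17898 genes at P2 and 2 of 12481 at P17. Such ranks favour long genes, and 98.2% of protein-coding genes are shorter than Msi2. Its widest P2 peak covered 122975 bp and ranked 4 of 287845. The 3 internal SOX9 sites that were absent at P17 lay under H3K27ac at both ages.

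Ptbp1 (chr10:79854432-79864435, plus strand) encodes the PTB protein that represses neural exons, and both factors were listed there at both ages. At P2 the SOX8 peak covered 3478 bp (chr10:79852469-79855946) and the SOX9 peak 3658 bp (chr10:79852594-79856251), with 3353 bp in common across the start. At P17 the SOX9 peak was 9349 bp wide (chr10:79852563-79861911, rank 242 of 2855) and contained all 3658 bp of the P2 SOX9 peak. The P17 SOX8 peak of 3726 bp (chr10:79858252-79861977) did not reach the start: it began 3820 bp downstream and 2000 bp beyond the end of the P2 SOX9 peak. SOX8 at Ptbp1 was therefore listed at separate positions at the 2 ages, and the P17 SOX9 peak overlapped both, with 3660 bp of the P17 SOX8 peak inside it.

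A neighbouring gene bears on this. The end of Plppr3 (chr10:79860475-79874958), which encodes a phospholipid phosphatase-related membrane protein, lies inside the Ptbp1 window, and the P17 peaks ran into it by 1503 bp for SOX8 and 1437 bp for SOX9. To which of the 2 genes the P17 peaks belong cannot be told apart from positions. The noncoding gene E130317F20Rik also lay under the peaks at the start. H3K4me3 at Ptbp1 covered 7339 bp at P2 and 7872 bp at P17, and H3K27ac covered 17.7 and 12.6 kb of the window. Both marks were listed over the start at both ages.

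**Figure D3:**
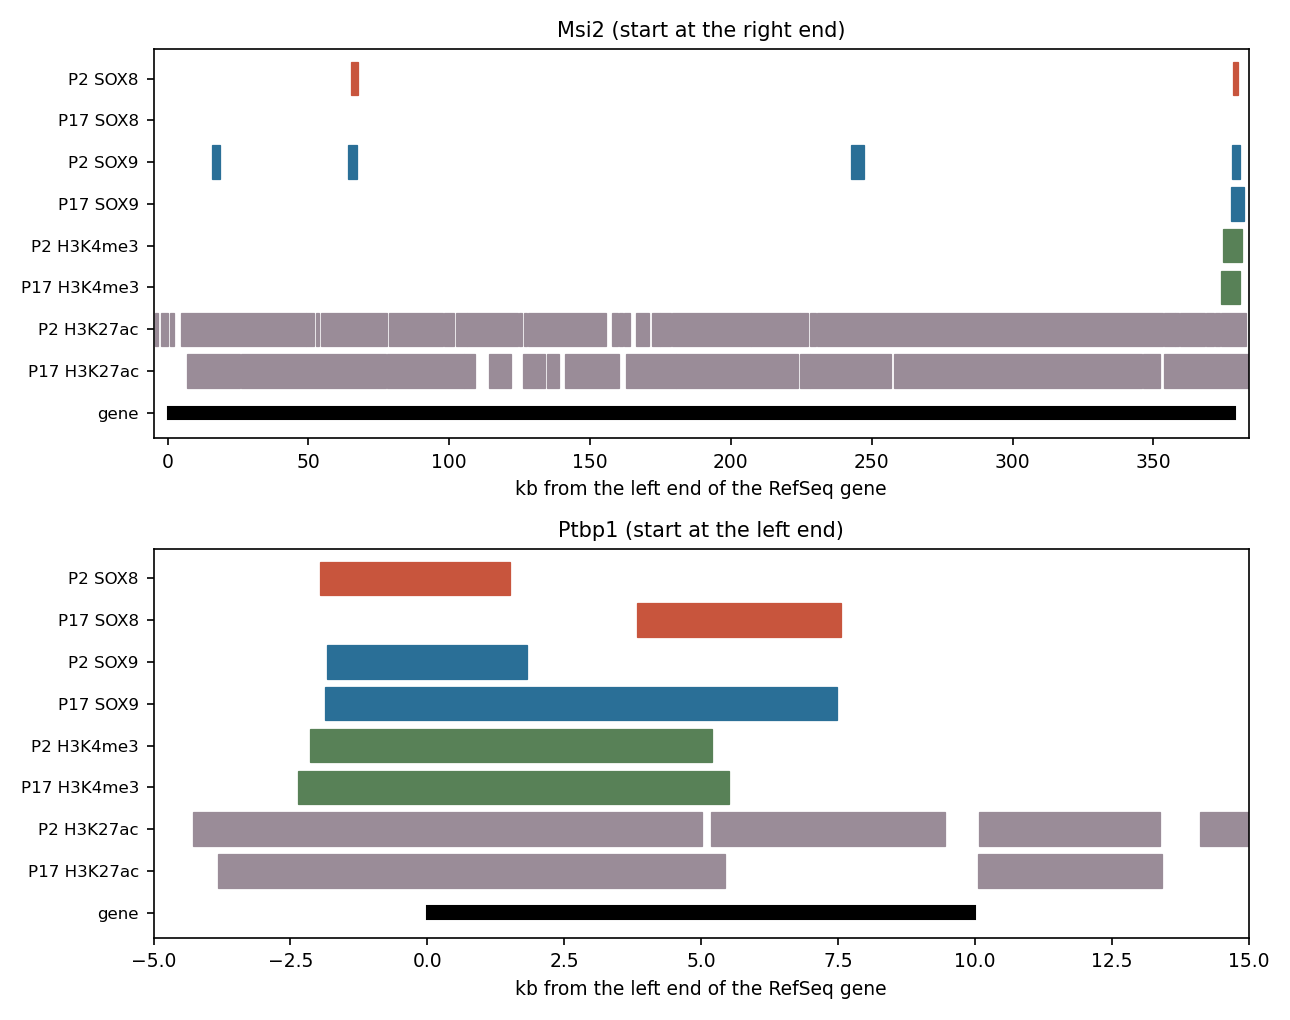
Peaks over Msi2 (top) and Ptbp1 (bottom) with 5 kb flanks by list (rows, 1 bar per peak), against distance in kb from the left end of the RefSeq gene, drawn as a black bar. At Msi2 the 3 internal P2 SOX9 peaks have no P17 peak below them, and at Ptbp1 the P17 SOX9 peak of 9349 bp overlaps the P2 peaks at the start and the P17 SOX8 peak inside the gene.

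Ptbp2 (chr3:119718741-119784647, minus strand), the paralog that neurons express, had a single SOX peak. It was a P2 SOX9 peak of 2503 bp at the start (chr3:119782048-119784550), slightly narrower than the list median of 2668 bp. H3K4me3 at that start covered 4174 bp at P2 and 3947 bp at P17, and the H3K27ac peak there 2430 and 6313 bp. Over the whole window, H3K27ac covered 11.9 kb in 10 peaks at P2 and 13.3 kb in 2 peaks at P17. The start of Ptbp2 thus kept its marks without a listed P17 SOX peak, unlike that of Ptbp1.

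Srrm4 (chr5:116439268-116592562, minus strand), the regulator of very short neural exons, had 2 SOX sites, at the start and inside the gene. At P2, SOX9 was listed at both, with 4308 bp over the start (chr5:116590005-116594312) and 3937 bp at a site 19.2 kb downstream (chr5:116568631-116572567). P2 SOX8 was listed at the internal site alone, with 3408 bp, all of it inside the SOX9 peak. At P17, SOX8 was listed at the start alone, with 3958 bp (chr5:116590805-116594762), sharing 3508 bp with the P2 SOX9 peak. P17 SOX9 was listed at the internal site alone, with 5704 bp (chr5:116566922-116572625), and contained the whole of both P2 peaks there. No SOX8 site at Srrm4 was common to the 2 ages, although the gene counts as having SOX8 at both.

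The internal Srrm4 site lay outside H3K4me3 and under H3K27ac at both ages. H3K4me3 at the start covered 6456 bp at P2 and 8218 bp at P17. H3K27ac went from 34 peaks over 73.2 kb to 3 peaks over 118.9 kb, of which the widest, 88804 bp, ranked 56 of 29909 and reached from the start across the internal site.

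Celf4 (chr18:25477620-25754520), which encodes a CELF protein of neurons, held the most SOX peaks of the 8 genes. At its right end SOX8 and SOX9 were both listed at both ages, with 3635 and 3490 bp at P2 and 2800 and 4295 bp at P17, all over H3K4me3. This was the one site of the 8 genes where the peaks of all 4 SOX lists overlapped one another, and the only one where a P2 and a P17 SOX8 peak did. Inside the gene, no 2 SOX peaks overlapped: the 4 P2 SOX9 peaks of 2469 to 3525 bp, the 3 P17 SOX8 peaks of 1554, 9703 and 2886 bp, and the P17 SOX9 peak of 6364 bp each stood alone. The P17 SOX8 peak of 9703 bp (chr18:25548295-25557997) ranked 11 of 2400 and lay 1038 bp from the nearest P2 SOX9 peak. With 16.9 kb under P17 SOX8, or 5.91% of its window, Celf4 ranked 13 of 2850 genes with such a peak. This rank too favours long genes, and 97.1% of protein-coding genes are shorter than Celf4.

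H3K27ac at Celf4 covered 222.1 kb in 41 peaks at P2 and 176.5 kb in 16 peaks at P17. H3K4me3 covered 6362 and 7116 bp at the right end. The narrowest internal P17 SOX8 peak, of 1554 bp, was the one Celf4 SOX peak at P17 with no P17 H3K27ac over it.

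**Figure D4:**
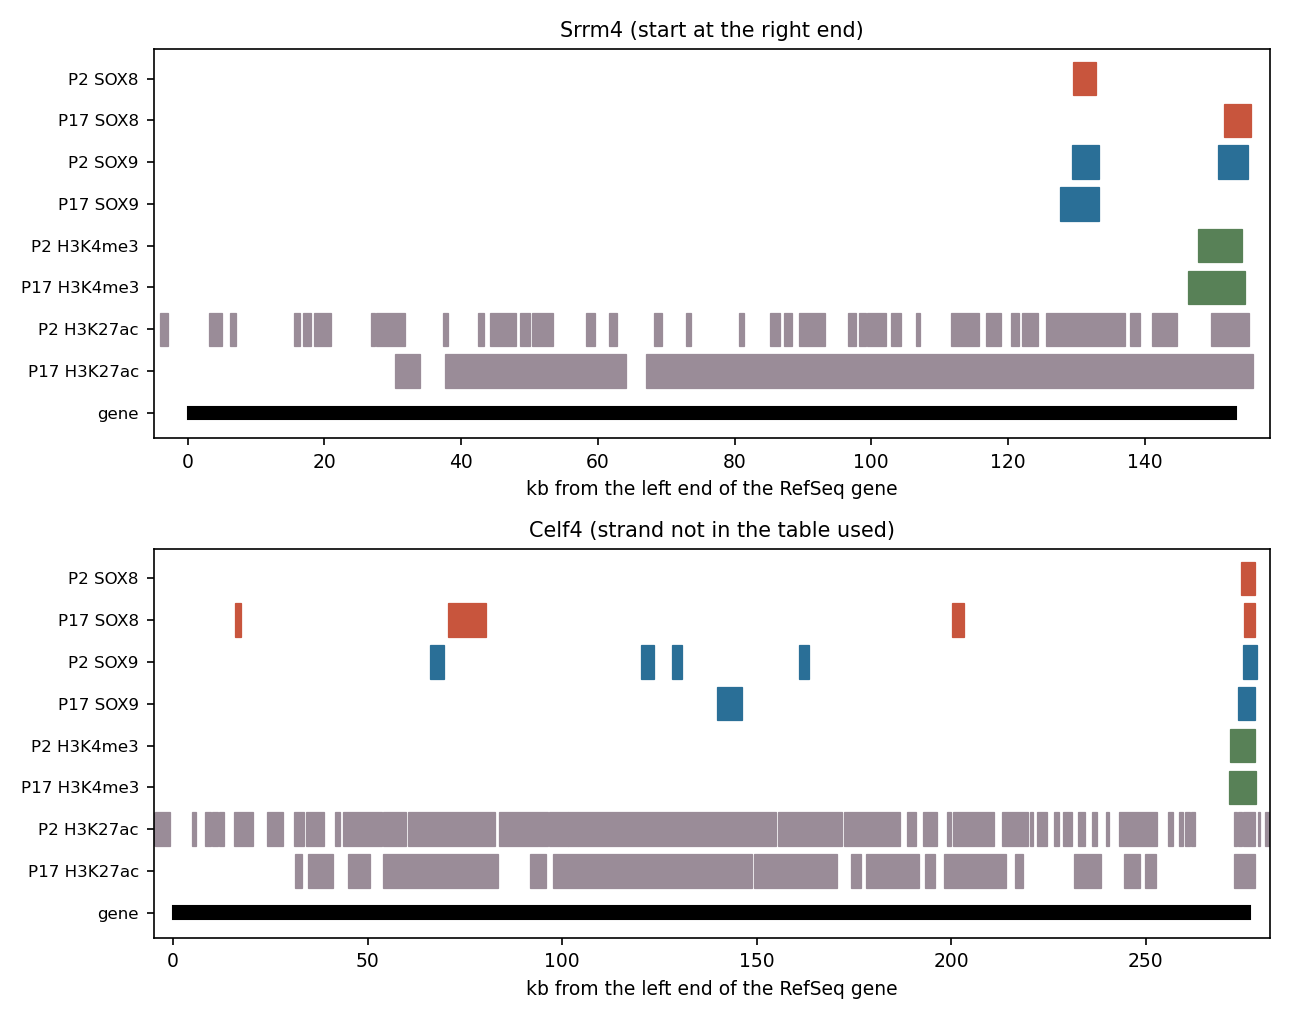
Peaks over Srrm4 (top) and Celf4 (bottom) with 5 kb flanks by list (rows, 1 bar per peak), against distance in kb from the left end of the RefSeq gene, drawn as a black bar. At Srrm4 the P17 SOX8 peak is at the start and the P17 SOX9 peak of 5704 bp at the internal site, and at Celf4 the 4 SOX lists meet at the right end while the internal SOX peaks stand apart.

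Nova2 (chr7:18925888-18965319, plus strand), the neuronal Nova gene, had a single P2 SOX9 peak of 3883 bp over the start (chr7:18923057-18926939) and no other SOX peak. Its H3K4me3 covered 4692 bp at P2 and 2974 bp at P17, and H3K27ac 5.0 kb and 19.7 kb, each time in 4 peaks. Of the P17 H3K27ac bases, a peak of 5583 bp covered the start and the others, of 1925, 7521 and 4627 bp, lay within the gene. At Nova2 the H3K4me3 value was thus lower and the H3K27ac value higher at P17.

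Rbfox2 (chr15:77078990-77308434), a splicing regulator active in many tissues including neurons, had 1 P2 SOX9 peak of 2692 bp, 235 bp from the right end of the gene (chr15:77305508-77308199). H3K4me3 was listed there at both ages, with 3796 bp at P2 and 3302 bp at P17. A second P2 H3K4me3 peak of 3701 bp (chr15:77151034-77154734) had no P17 counterpart. H3K27ac was listed in 43 peaks over 79.3 kb at P2 and in 2 peaks over 4.4 kb at P17, and neither P17 peak, of 2380 and 1990 bp, lay near the H3K4me3 peak. The P17 H3K4me3 peak of Rbfox2 therefore had no P17 H3K27ac over it.

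Put beside all genes, the marks of the 8 varied in both directions. The ratio of P17 to P2 bases under H3K4me3 ranged from 0.440 at Rbfox2 and 0.634 at Nova2 to 1.27 at Srrm4 and 1.32 at Msi1, where the median over 10043 genes was 1.05 with quartiles of 0.898 and 1.25. For H3K27ac the whole list covered 0.330 times as many bases at P17, and the median gene 0.698 times, with quartiles of 0.315 and 1.23. Against that background, Nova2 (3.91), Srrm4 (1.63) and Msi1 (1.26) lay above the upper quartile, Ptbp2 (1.12), Msi2 (0.969), Celf4 (0.795) and Ptbp1 (0.711) between the quartiles, and Rbfox2 (0.0551) far below the lower one. These ratios depend on the lengths of the 2 H3K27ac lists. With only the 29909 widest peaks kept at each age, the median over 7262 genes was 1.02 with quartiles of 0.474 and 1.98, and the P2 peaks of Ptbp2 and Nova2 were no longer listed, which leaves no ratio for them. Srrm4 (3.25) then lay above the upper quartile and Rbfox2 (0.274) below the lower one, while Msi1 (1.74), Msi2 (1.06), Celf4 (0.938) and Ptbp1 (0.749) lay between them.

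The SOX peaks of the 8 genes numbered 6 for P2 SOX8, 17 for P2 SOX9, 6 for P17 SOX8 and 6 for P17 SOX9. Of the 17 P2 SOX9 peaks, 7 lay at a start and 10 away from it. Either gene end again stood for the start at Msi1, Rbfox2 and Celf4. At P2 they were often wider than the rest of their lists: the median was 3443 bp for SOX8 against 2217 bp in the list, and 3393 bp for SOX9 against 2668 bp. At P17 they were close to the list medians, with 3306 bp against 2911 bp for SOX8 and 5180 bp against 5336 bp for SOX9. All 6 P2 SOX8 peaks overlapped a P2 SOX9 peak, as did 94.5% of that list, whereas 2 of 6 P17 SOX8 peaks overlapped P17 SOX9, against 59.0%.

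H3K4me3 of the same age overlapped 4 of 6 P2 SOX8 peaks (90.1% of the list) and 8 of 17 P2 SOX9 peaks (79.8%), and at P17 it overlapped 3 of 6 for SOX8 (69.7%) and 4 of 6 for SOX9 (66.5%). The P2 SOX9 peaks outside it were internal sites of Msi1, Msi2, Srrm4 and Celf4. H3K27ac overlapped all 6 P2 SOX8 and all 17 P2 SOX9 peaks, as it did 99.7% and 99.4% of those lists. Between the ages, 4 of 6 P17 SOX9 peaks overlapped a P2 SOX9 peak (58.6% of the list) and 1 of 6 P17 SOX8 peaks a P2 SOX8 peak (50.4%). Several of these peaks share a gene, Celf4 above all, so they are not independent.

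**Figure D5:**
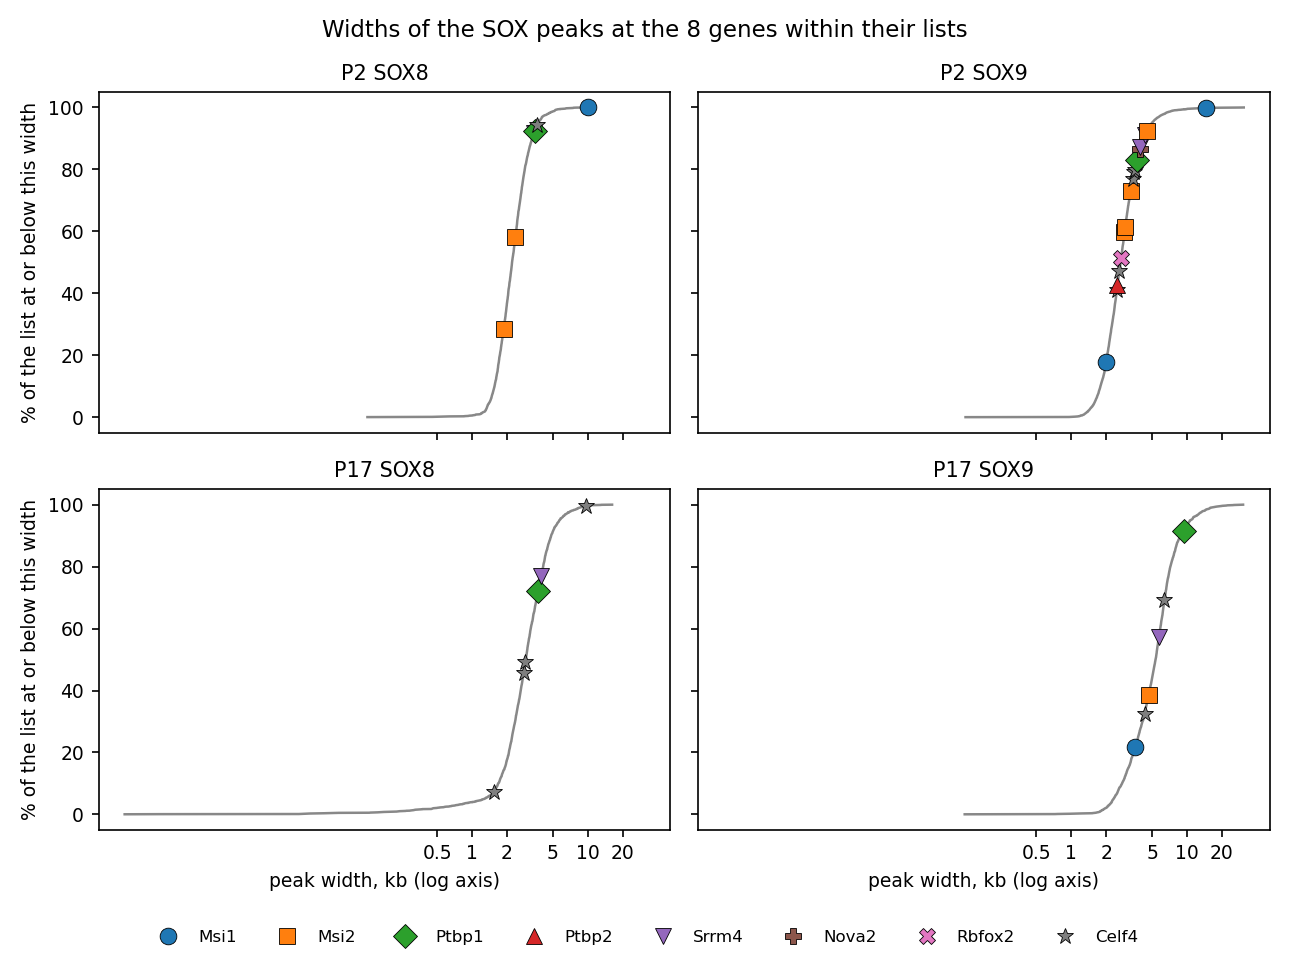
Width of each SOX peak at the 8 genes (symbols, by gene; x axis in kb, log scale) on the cumulative share of its list at or below that width (grey line; y axis in percent), with 1 panel per list. Msi1 holds the widest P2 SOX8 peak, of 10029 bp, and the P2 SOX9 peak of rank 9 of 5476, of 14467 bp, and Celf4 near the top of P17 SOX8, with a peak of 9703 bp.

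Other splicing regulators had SOX peaks in differing measure. Of 10 paralogs of the 8 genes, 4 had P2 SOX8, 5 had P2 SOX9, 1 had P17 SOX8 and 4 had P17 SOX9. The shares over all protein-coding genes were 15.1%, 27.7%, 13.0% and 15.7% in this order. Ptbp3, Nova1, Celf6 and Rbfox3 had P2 peaks of both factors, and Celf3, Celf5, Celf6 and Rbfox3 had P17 SOX9. Ptbp3 and Nova1, the paralogs of Ptbp1 and Nova2, had no P17 SOX peak. Rbfox3, which encodes the neuronal nuclear antigen NeuN, was the paralog with P17 SOX8, in 2 peaks over 6362 bp. Rbfox1, Celf1 and Srrm3 had none of the 4. H3K4me3 was present at 7 of the 10 at P2 and 9 of the 10 at P17, against 49.3% and 50.9% of all genes.

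Among 20 other tissue-regulated RNA-binding genes, 5 had P2 SOX8, 8 P2 SOX9, 3 P17 SOX8 and 1 P17 SOX9. Elavl1, Khdrbs1, Matr3, Qk and Tial1 had P2 peaks of both factors. Qk, the Quaking gene of glia, also had P17 SOX8 over 4148 bp. Esrp2 and Rbm38 had P17 SOX8 over 2197 and 2608 bp, without a P2 peak of either factor. Raver1, which encodes a partner of PTBP1, was the gene with P17 SOX9. Among 26 broadly expressed SR and hnRNP genes the counts were 20, 24, 13 and 12 in the same order, and all 26 had H3K4me3 at both ages. Those with P2 peaks of both factors and a P17 SOX peak included Hnrnpa1, Hnrnpa2b1, Hnrnpa3, Hnrnpc, Hnrnpd and Hnrnph1, the first 6 in alphabetical order. The 8 genes had SOX9 at 8 of 8 at P2 and 5 of 8 at P17, against 27.7% and 15.7% of all genes. The SOX9 counts were 24 of 26 and 12 of 26 in the SR and hnRNP genes. They were 8 of 20 and 1 of 20 in the tissue-regulated genes, and 5 of 10 and 4 of 10 in the paralogs. For SOX8 the 8 genes had 5 of 8 and 3 of 8, beside 20 of 26 and 13 of 26 in the SR and hnRNP genes. The SOX8 counts were 5 of 20 and 3 of 20 in the tissue-regulated genes, and 4 of 10 and 1 of 10 in the paralogs.

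The likeness of 2 genes to the rest was measured by the distance between log10 values of the bases covered in the 8 lists, where a smaller distance is a closer match. Nearest to Msi1 was Arid1a (0.645), a chromatin remodelling gene, followed by Ptch1 (0.734), the Hedgehog receptor, and Pax6 (0.817), an eye-field homeobox gene. All 3 lacked P17 SOX8 like Msi1, which follows from their choice by a distance that includes that list. Pax6 had 10700 bp under P2 SOX8 and 30208 bp under P2 SOX9. Nearest to Ptbp1 were Cd81 (0.202), Ctdsp2 (0.248) and Prkaca (0.258), a tetraspanin, a phosphatase and a kinase subunit gene. Their P17 SOX9 peaks covered 8632 to 9324 bp, beside 9349 bp at Ptbp1. This closeness too follows from the choice, since the distance was taken over the same 8 lists.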

How the data were processed

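The data were 8 deposited peak lists from CUT&RUN of mouse retina, 1 for each target and age. Per the submitters' processing notes, Bowtie2, SEACR and the build GRCm38 were used. Versions, the threshold, the use of the IgG libraries and the way libraries were combined are not given in the sources used here. The authors' lists hold positions, and the score was 0 in every line, so they carry no height, depth or p-value.

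Genes came from a RefSeq table of GRCm38.p6 and starts from a promoter table of the same build, which held 17492 of the 21887 protein-coding genes and 5 of the 8 members. For the others, either gene end stood for the start. A peak counted at a gene when 1 bp or more overlapped the gene with 5 kb on either side, and at the start when within 1 kb of it. Bases covered are the union of peaks within that window. The gene table holds no exons, so whether a peak is exonic or intronic is not given, and positions count from 1.

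Named genes were the 8 members, genes under their peaks, up to 6 per list of other splicing genes in alphabetical order, and the 3 genes most like Msi1 and Ptbp1. The members and lists were chosen with earlier results of these data known, and the shares among long genes and the H3K27ac ratios at equal list length were added after the values were seen. The functions were tested on simulated data with known overlaps. Python 3.11.15, numpy 2.4.6, pandas 2.3.3 and matplotlib 3.10.9 were used.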

Additional observations from a re-analysis of the deposited data

How the results depend on the processing

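Other flanks, overlap rules, peak widths and list lengths left most counts within 1.5 times their value: 63 of 64 counts of genes with a peak, 22 of 24 counts at the start and 30 of 32 counts of losses with age. Some settings could hardly change the counts. The narrowest SOX peak of the 8 genes was 1554 bp, so keeping peaks of at least 1 kb removed none. Peaks trimmed to 500 bp mostly stay inside a long window. All 5 counts that moved further did so when only the wider 50% of each list was kept. Genes with P17 SOX9 then fell from 5 to 3 (Ptbp1, Srrm4 and Celf4), those with P17 SOX8 at the start from 2 to 1 (Srrm4), and those with P17 SOX9 at the start from 3 to 1 (Ptbp1). Losses of H3K4me3 with age rose from 0 to 2 (Nova2 and Rbfox2) and of H3K27ac from 0 to 1 (Rbfox2). Each follows from the construction, since narrower peaks were dropped. A count that stayed within 1.5 times can still name other genes. SOX9 losses with age, at Ptbp2, Nova2 and Rbfox2 in the main setting, were at Msi1, Msi2, Nova2 and Rbfox2 with the wider 50%. With equal numbers of the widest peaks they were at Nova2 and Rbfox2 alone. Leaving out peaks over another protein-coding gene removed Ptbp1 from both P17 SOX lists, with 2 genes for SOX8 and 4 for SOX9. With equal numbers of the widest peaks at both ages, P2 SOX9 was listed in the window of 7 genes and at the start of 6, both without Ptbp2. P2 H3K27ac was listed at 6 genes, without Ptbp2 and Nova2, in the window and at the start alike. The ratio of P17 to P2 bases under H3K27ac then went from 0.0551 to 0.274 at Rbfox2 and from 1.63 to 3.25 at Srrm4. Of 448 values of bases covered, 86 moved by more than 1.5 times, 53 of them when peaks were trimmed to 500 bp. No paired analysis was possible because no list names a replicate, and for the same reason no replicate could be left out.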
